A study of Mus musculus with 4 samples.

Results

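The CXCR3 chemokine axis, made of the ligands Cxcl9 and Cxcl10 and their receptor Cxcr3, was read in single lung cells of mice given lipopolysaccharide (LPS) or saline, with or without low-dose irradiation of the chest. The 3 genes were taken by gene symbol out of 32285 listed genes. The 4 libraries were compared. The LPS+RT library came from lungs given 200 µg LPS from E. coli O55:B5 into the trachea and 1 Gy of X-rays to the thorax on the next day. The LPS library had the same injection without irradiation, the PBS+RT library had 100 µL phosphate-buffered saline and the same irradiation, and the PBS library had saline alone. All animals were wild-type male C57BL/6 mice aged 6 to 7 weeks. Lungs were taken 48 h after injection, which is 24 h after irradiation in the RT groups. How many mice each library holds is not stated in the labels, and all 4 libraries carry the same batch label. Dissociated cells were passed over a 1.084 density medium to enrich mononuclear cells, so the number of cells of a class also carries that step.

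CXCL9 and CXCL10 are small secreted chemokines that share 1 receptor, the Gi-coupled CXCR3, which is carried mainly by activated T cells, natural killer cells and plasmacytoid dendritic cells and draws them towards the source. Cxcl9 is induced chiefly by interferon-gamma. Cxcl10 responds to interferon-gamma, to type I interferons and to NF-kB downstream of Toll-like receptors such as the LPS receptor TLR4. Cxcr3 itself depends on T-bet, the transcription factor encoded by Tbx21. Another CXCR3 ligand, Cxcl11, stood in the list of ligands and decoys of the axis, and no value of it is given here.

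Both ligand genes lie on the minus strand of mouse chromosome 5 in build mm10, Cxcl9 (ENSMUSG00000029417) at chr5:92321347-92328079 and Cxcl10 (ENSMUSG00000034855) at chr5:92346638-92348889, with 18558 bases between them. Cxcr3 (ENSMUSG00000050232) lies on the minus strand of the X chromosome at chrX:101731535-101734269. All 3 genes matched the RefSeq promoter table of build GRCm38.p6. The 250 bases before the start of each ligand gene are shown because the ligands are induced by overlapping but different signals. Exact matches of interferon and NF-kB motifs also differ between the 2 windows. Cxcl9 covers chr5:92328080-92328329 and Cxcl10 covers chr5:92348890-92349139, both written 5′ to 3′ along the gene's own strand, with motif matches in capitals.
Cxcl9: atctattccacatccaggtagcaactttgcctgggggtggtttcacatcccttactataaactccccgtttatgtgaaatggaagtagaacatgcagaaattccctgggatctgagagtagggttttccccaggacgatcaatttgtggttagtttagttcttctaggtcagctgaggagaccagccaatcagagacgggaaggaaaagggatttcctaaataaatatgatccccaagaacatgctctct
Cxcl10: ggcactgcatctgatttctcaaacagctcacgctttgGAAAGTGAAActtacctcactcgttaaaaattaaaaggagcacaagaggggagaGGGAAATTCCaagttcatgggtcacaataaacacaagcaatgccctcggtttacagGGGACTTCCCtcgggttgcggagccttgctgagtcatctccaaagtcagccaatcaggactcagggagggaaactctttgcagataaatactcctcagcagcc
Both strands were searched for the core of the interferon-stimulated response element (GAAA, any 2 bases, then GAAA again), for the gamma-activated site TTCNNNGAA and for the NF-kB consensus. The Cxcl10 window holds 1 interferon-stimulated response element core, 213 to 204 bases before the start, and 2 NF-kB matches, at 159 to 150 and at 103 to 94 bases before the start. No match of the 3 motifs overlaps another there. The Cxcl9 window holds no exact match of the 3 motifs. This says nothing about sites outside it, nor about sites within it that depart from these patterns, which were not searched. Among 32851 promoters of the same length, 2.98% hold the response element core, 7.02% the gamma-activated site and 3.90% the NF-kB consensus.

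After filtering, 9669 LPS+RT, 8958 LPS, 6243 PBS+RT and 8909 PBS cells were kept, with medians of 4288, 5554, 8591 and 4294 unique molecular identifiers (UMIs, counted RNA molecules) per cell in the same libraries. Clusters built without Cxcl9, Cxcl10 and Cxcr3 were named from marker genes, and 25999 of 33779 cells fell into 21 classes, each called by its markers with "-like". Levels are UMIs of a gene summed over the class and scaled to the class total, as counts per 1000000 (CPM), with exact Poisson 95% intervals. Each group is 1 library, so no difference has a replicate check, no test was possible, and every interval covers counting error only. A class level cannot tell fewer expressing cells from less RNA per cell, so shares of cells with a UMI are given beside it. The 3′ counts are not scaled by length, and levels are compared within a gene and not between genes.

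Cxcl9 was found almost entirely in the LPS library, and there mainly in macrophage-like and dendritic cell-like cells. The name of its largest holder, the inflammatory macrophage-like class, is a near tie with classical monocyte-like, as given below. Over all cells, Cxcl9 had 458 UMIs (6.42 CPM) in LPS+RT, 18780 (248 CPM) in LPS, 26 (0.397 CPM) in PBS+RT and 56 (0.919 CPM) in PBS lungs. Only the LPS library stands high, and the LPS+RT library lies between it and both saline libraries. The LPS level was 270 times the PBS level (interval 208 to 358). The LPS+RT level was 38.7 times lower than the LPS level (35.3 to 42.5) and 16.2 times the PBS+RT level (10.9 to 25.0). Between the saline libraries, PBS+RT was 2.32 times lower than PBS (1.43 to 3.84), on few UMIs.

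Inflammatory macrophage-like cells, named from Nos2, Arg1, Thbs1, Spp1, Inhba and Met, held 12.0% of the Cxcl9 UMIs of the LPS+RT library and 64.1% of those of the LPS library. This class had 113 LPS+RT, 549 LPS, 1 PBS+RT and 0 PBS cells, so it has no saline level, and 4 of its 6 markers were at least 2-fold above their level in other cells. Its mean log2 marker level over the median cluster was 4.89 for inflammatory macrophage and 4.74 for classical monocyte markers. The name is thus a near tie, and the share of Cxcl9 given to macrophage-like cells rests on it. Cxcl9 stood at 21.6 CPM (16.3 to 28.2) in LPS+RT and at 858 CPM (843 to 873) in LPS inflammatory macrophage-like cells, 39.6 times lower in LPS+RT (30.4 to 52.7). A Cxcl9 UMI was found in 7.97% of LPS+RT and 40.8% of LPS cells, and in 2.93% and 30.6% after thinning each cell to 2000 UMIs. In the LPS library 32 cells carried at least as many of the class's 12031 Cxcl9 UMIs as all its other cells, so the level rests on a minority of strong producers but not on a single cell.

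Dendritic cell-like cells, which present antigen to T cells, had an LPS level of Cxcl9 within counting error of the inflammatory macrophage-like one. It was 74.1 CPM in LPS+RT, 844 CPM (803 to 885) in LPS, 5.00 CPM in PBS+RT and 6.98 CPM in PBS dendritic cell-like cells. The LPS level was 121 times the PBS level (69.0 to 235), and LPS+RT was 11.4 times lower than LPS (9.37 to 14). A single LPS+RT cell held 68 of the 108 UMIs there. Without it the LPS+RT level was 27.9 CPM, while LPS without its top cell still stood at 739 CPM. Cells with a Cxcl9 UMI made up 10.5% of LPS+RT, 37.2% of LPS, 6.25% of PBS+RT and 5.56% of PBS dendritic cell-like cells.

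Alveolar macrophage-like cells, which patrol the air space, had 4.68 CPM of Cxcl9 in LPS+RT, 271 CPM in LPS, 0.876 CPM in PBS+RT and 0.824 CPM in PBS lungs. The LPS level was 329 times the PBS level (192 to 619), and LPS+RT was 58.0 times lower than LPS (47.7 to 71.3) but 5.34 times PBS+RT (3.09 to 9.88). Cluster 5 of this class held 184 LPS+RT, 7 LPS, 671 PBS+RT and 552 PBS cells. Cluster 16 held 559 LPS+RT, 142 LPS, 15 PBS+RT and 66 PBS cells. The ratios of this class, for either ligand, thus set different mixtures of cells against each other, and the part of this was not tested. In LPS 3 cells held at least as many UMIs as all the others, 1 of them with 482 UMIs, and the level without it was 206 CPM. Cells with a UMI reached 4.42% in LPS+RT, 25.8% in LPS, 1.28% in PBS+RT and 2.03% in PBS, so in LPS lungs the gene was detected far more widely than the UMIs were spread. Interstitial macrophage-like cells, of the tissue between the air sacs, had 12.3 CPM in LPS+RT, 29.1 CPM in LPS, 0 UMIs in PBS+RT and 18.3 CPM in PBS lungs, and their LPS over PBS ratio of 1.59 (0.935 to 2.91) had an interval that includes 1. The PBS level rests on 15 UMIs in 2 cells, 8 of them in 1 cell. Without the top cell of each library the levels were 4.48 CPM in LPS+RT, 20.4 CPM in LPS and 8.53 CPM in PBS.

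Neutrophil-like, fibroblast-like and endothelial-like cells also carried Cxcl9 in the LPS library, at lower levels. Neutrophil-like cells, short-lived granulocytes that enter inflamed tissue, had 0.502 CPM in LPS+RT, 116 CPM in LPS, 1.01 CPM in PBS+RT and 2.10 CPM in PBS, where each of the 3 low values is 1 UMI. Their LPS+RT level was 231 times lower than the LPS level, with an interval from 41.4 to 9132 because of that single UMI. Fibroblast-like cells had 4.29 CPM in LPS+RT, 74.4 CPM in LPS, 0.116 CPM in PBS+RT and 0.510 CPM in PBS, but 1 LPS cell held 149 of 290 UMIs and the LPS level without it was 36.7 CPM. Endothelial-like cells, which line the vessels that lymphocytes cross, had 5.88 CPM in LPS+RT and 38.0 CPM in LPS, with 0.0955 CPM in PBS+RT and 0.354 CPM in PBS. LPS+RT was 6.46 times lower than LPS (4.92 to 8.56). A single cell held 35 of the 74 LPS+RT UMIs and another 60 of the 196 LPS UMIs, and without the top cell of each library the levels were 3.10 CPM in LPS+RT and 26.4 CPM in LPS. General capillary cells had 3.53 CPM in LPS+RT, 20.8 CPM in LPS, 0.142 CPM in PBS+RT and 0.234 CPM in PBS, and aerocytes 2.88 CPM in LPS+RT, 86.9 CPM in LPS, 0 CPM in PBS+RT and 0.231 CPM in PBS. In LPS aerocytes 1 cell held 60 of 120 UMIs, and without it they stood at 43.8 CPM. Large-vessel cells had 32.5 CPM in LPS+RT and 11.6 CPM in LPS, but 35 of the 36 LPS+RT UMIs lay in 1 cell. Classical monocyte-like cells had 0 UMIs in every library but LPS, where 119 UMIs gave 69.2 CPM and 2 cells held at least as many as the rest together. Platelet-like cells had 1 UMI in LPS+RT and 17 in LPS (85.4 CPM), with 0 UMIs in both saline libraries. In LPS 1 cell held 12 of the 17 UMIs, and the level without it was 25.3 CPM. The alveolar type 2 gene Sftpc stood in LPS platelet-like cells at 70.7% of its level over all cells, which for Cxcl9 would be 176 CPM, above the measured level, and the part of free RNA was not tested. In the LPS library the T and innate lymphoid cell-like class had 17.1 CPM, with 15 of 17 UMIs in 1 cell and 2.05 CPM without it, alveolar type 1-like cells 14.5 CPM, and the lymphatic, nonclassical monocyte-like, pericyte-like, natural killer cell-like, T cell-like, alveolar type 2-like, plasmacytoid dendritic cell-like, basophil-like and erythroid-like classes between 0 and 14.1 CPM.

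Levels in classes that should lack a gene were read as a measure of free RNA in the droplets. B cell-like cells, not known as a source of Cxcl9, had 0 CPM in LPS+RT, 6.74 CPM in LPS, 0 CPM in PBS+RT and 0.289 CPM in PBS, and 2.30% of the LPS B cell-like cells had a Cxcl9 UMI at a median depth of 5010 UMIs. The 0 of 457 LPS+RT B cell-like cells allow a share of up to 0.657%. The neutrophil gene S100a8, read as a second measure in the LPS library, stood in endothelial-like cells at 5.00% of its level over all cells, which for Cxcl9 would be 12.4 CPM, and in fibroblast-like cells at 11.3%, which would be 28.1 CPM. The B cell gene Cd79a gave a higher value, 36.1 CPM for endothelial-like cells, close to their measured 38.0 CPM. For interstitial macrophage-like cells the Cd79a value of 51.3 CPM was above the measured 29.1 CPM. The part of free RNA in these levels was not tested.

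Classes were compared where both libraries held 50 or more cells and the higher one reached 20 CPM. There Cxcl9 was at least 2-fold higher in LPS than in PBS in 7 of 8 classes, where 7.7% of all gene and class pairs were. The exception was the interstitial macrophage-like class, whose PBS level rests on 2 cells and which without the top cell of each library has 20.4 CPM in LPS and 8.53 CPM in PBS, more than 2-fold apart. In LPS+RT against LPS, Cxcl9 was at least 2-fold lower in 9 of 9 classes, by 2.37 to 231 times, where 5.75% of all gene and class pairs were. Without the 5 cells richest in the gene in each class and library, the counts were 3 classes higher in LPS than in PBS and 4 lower in LPS+RT than in LPS. The 20 CPM limit was applied again to the remaining cells, so a class could also leave the count by falling under it. The share over all genes was not recomputed there. No class reached 20 CPM of Cxcl9 in the LPS+RT against PBS+RT or the PBS+RT against PBS comparison.

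**Figure D1:**
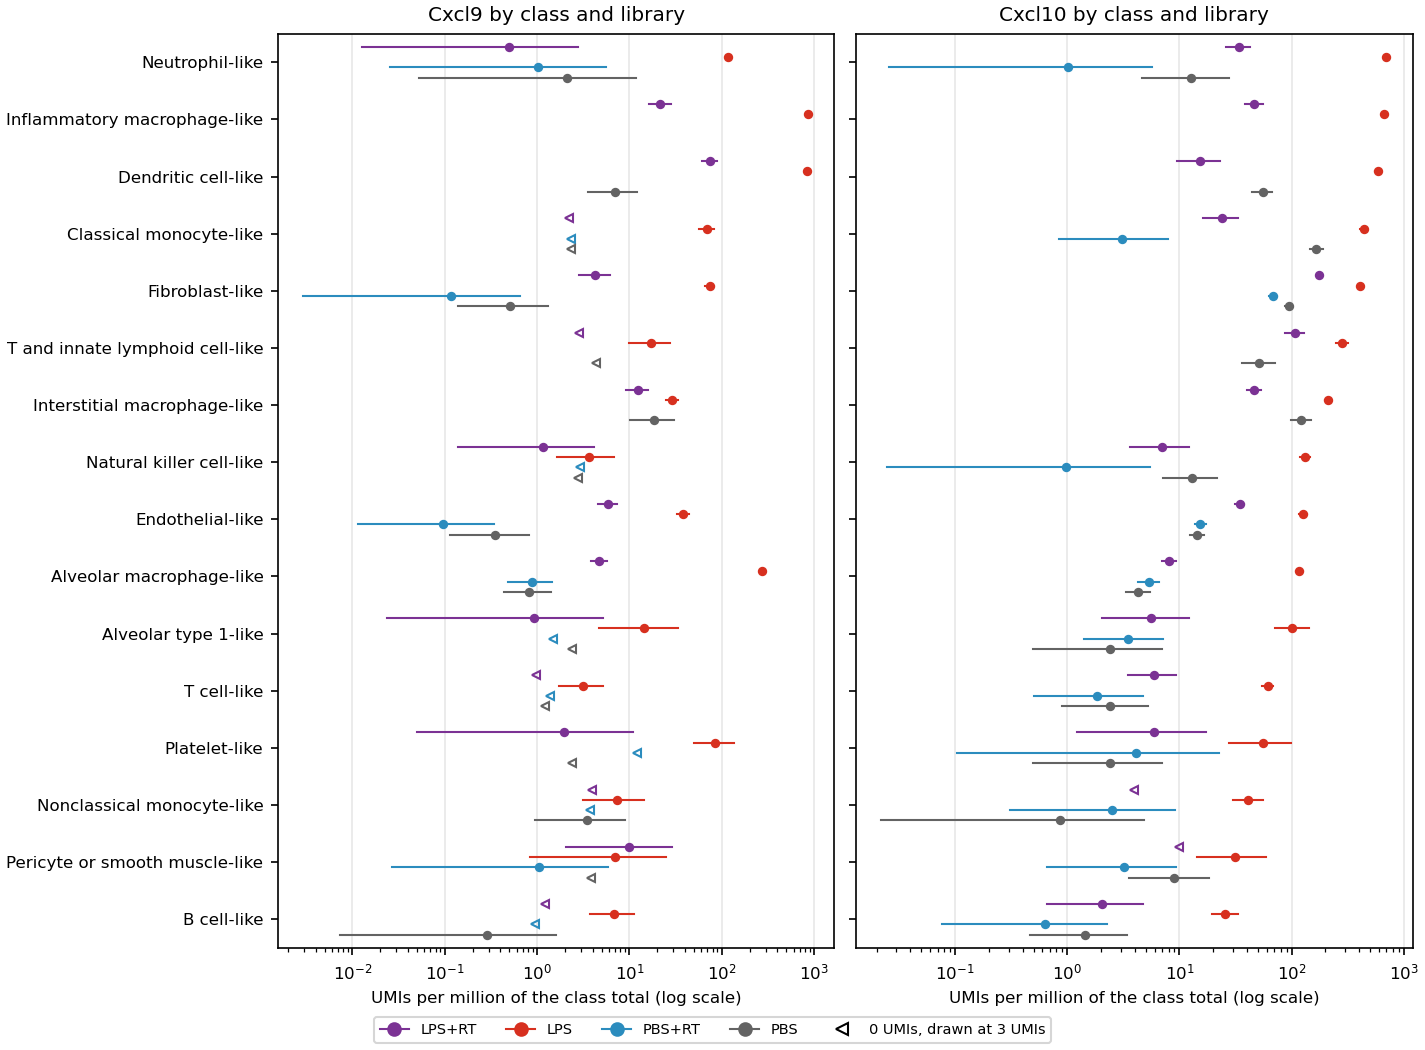
Cxcl9 (left) and Cxcl10 (right) in CPM on a log axis, by class with at least 50 cells, in the order LPS+RT, LPS, PBS+RT, PBS from top to bottom within a class; bars are exact Poisson 95% intervals and open triangles are 0 UMIs drawn at 3 UMIs. Cxcl9 reaches 858 CPM in LPS inflammatory macrophage-like and 844 CPM in LPS dendritic cell-like cells, and Cxcl10 reaches 698 CPM in LPS neutrophil-like cells.

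Cxcl10 was carried by more classes than Cxcl9 and was present in the saline libraries too. Over all cells it had 2467 UMIs (34.6 CPM) in LPS+RT, 28625 (378 CPM) in LPS, 1050 (16.0 CPM) in PBS+RT and 1527 (25.1 CPM) in PBS lungs. The LPS level was 15.1 times the PBS level (14.3 to 15.9), and LPS+RT was 11 times lower than LPS (10.5 to 11.4). LPS+RT remained 2.16 times the PBS+RT level (2.01 to 2.32), and PBS+RT was 1.56 times lower than PBS (1.44 to 1.69). The share of cells with a UMI followed the same order except between the saline libraries, with 4.05% in LPS+RT, 21.7% in LPS, 2.72% in PBS+RT, the deepest library, and 2.39% in PBS.

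The classes that held Cxcl10 in the LPS library were others than in the remaining libraries. In the LPS library 39.4% of its UMIs lay in neutrophil-like and 32.8% in inflammatory macrophage-like cells, with 5.56% in fibroblast-like cells. Fibroblast-like cells held 46.8% in LPS+RT, 55.7% in PBS+RT and 48.3% in PBS, and endothelial-like cells 17.6% in LPS+RT, 30.6% in PBS+RT and 13.3% in PBS, against 2.26% in LPS. These shares also move with the number of cells captured per class, and the neutrophil-like class had 549 LPS+RT, 2901 LPS, 116 PBS+RT and 74 PBS cells.

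**Figure D2:**
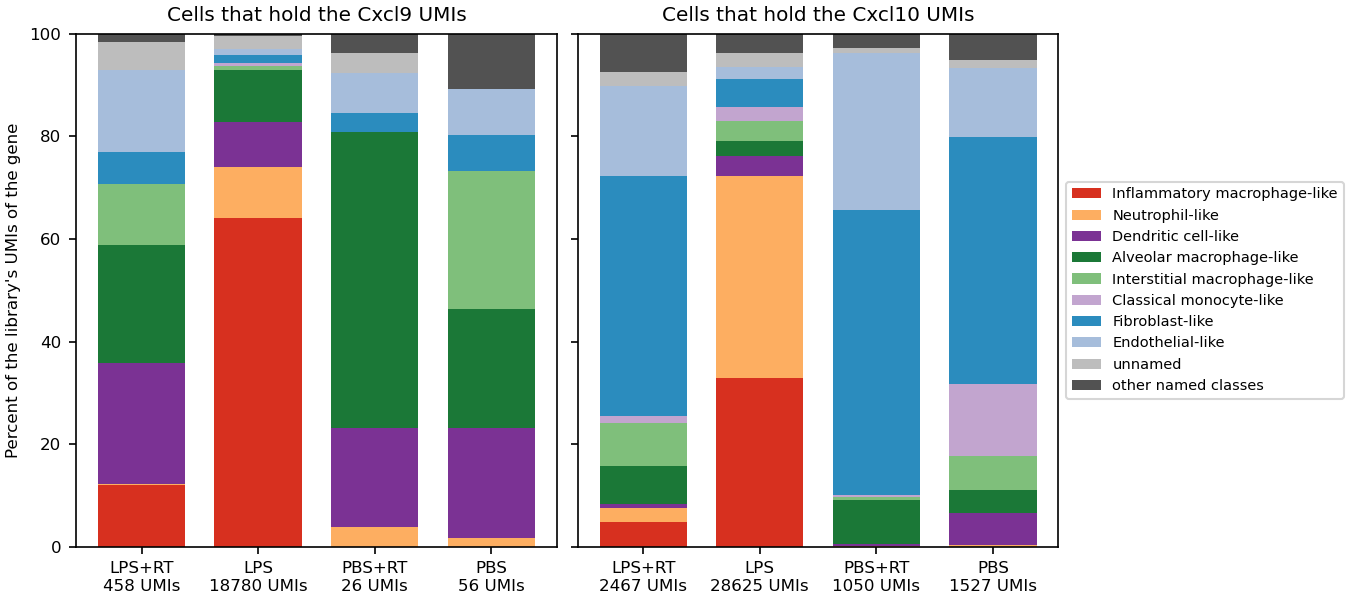
Percent of each library's Cxcl9 (left) and Cxcl10 (right) UMIs held by each class, with libraries in the order LPS+RT, LPS, PBS+RT, PBS and the library's UMIs of the gene under each bar. Inflammatory macrophage-like cells hold 64.1% of LPS Cxcl9, and fibroblast-like cells hold 46.8% of LPS+RT and 48.3% of PBS Cxcl10.

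Neutrophil-like and inflammatory macrophage-like cells had the highest Cxcl10 levels of the classes in the LPS library, and their order depends on how cells are weighted. Summed over cells the neutrophil-like level was the higher one, while as a mean over cells of equal weight it was 795 CPM, below 883 CPM in inflammatory macrophage-like cells. The summed neutrophil-like level was 33.6 CPM (26.1 to 42.7) in LPS+RT, 698 CPM (686 to 712) in LPS, 1.01 CPM in PBS+RT and 12.6 CPM in PBS neutrophil-like cells. The LPS level was 55.6 times the PBS level (25.5 to 151), and LPS+RT was 20.8 times lower than LPS (16.4 to 26.8). The saline values rest on 1 PBS+RT and 6 PBS UMIs. Clusters within the class were also mixed differently per library. Cluster 25, led by Ngp and Camp, held 49 of 74 PBS and 88 of 116 PBS+RT neutrophil-like cells. It held 205 of 2901 LPS and 93 of 549 LPS+RT ones. The ratios thus set different mixtures of cells against each other, and the part of this was not tested. Cells with a UMI made up 3.46% of LPS+RT, 24.5% of LPS, 0.862% of PBS+RT and 5.41% of PBS neutrophil-like cells, and after thinning 3.03% of LPS+RT, 18.4% of LPS, 0.274% of PBS+RT and 2.22% of PBS cells, with LPS highest at both depths.

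The other myeloid classes had a similar pattern. Inflammatory macrophage-like cells had 46.4 CPM of Cxcl10 in LPS+RT and 670 CPM (656 to 683) in LPS, 14.4 times lower in LPS+RT (12.0 to 17.4), with a UMI in 16.8% of LPS+RT and 56.7% of LPS cells. Dendritic cell-like cells had 15.1 CPM in LPS+RT, 592 CPM in LPS, 4.00 CPM in PBS+RT and 55.2 CPM in PBS, and LPS+RT was 39.2 times lower than LPS (25.8 to 62.8), the widest gap of any class for this gene. In PBS 1 dendritic cell-like cell held 58 of 95 UMIs. Alveolar macrophage-like cells had 8.11 CPM in LPS+RT, 118 CPM in LPS, 5.31 CPM in PBS+RT and 4.31 CPM in PBS, 27.3 times higher in LPS than in PBS (21.3 to 35.4). Classical monocyte-like cells, the blood precursors of tissue macrophages, had 23.8 CPM in LPS+RT, 438 CPM in LPS, 3.09 CPM in PBS+RT and 166 CPM in PBS. That PBS level is 1 cell with 178 of 215 UMIs, and without it PBS stood at 29.0 CPM. Interstitial macrophage-like cells had 46.3 CPM in LPS+RT, 211 CPM in LPS, 11.1 CPM in PBS+RT and 122 CPM in PBS. In PBS 1 cell held 45 of the 100 UMIs, and without it PBS stood at 69.0 CPM.

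Fibroblast-like cells, which build the matrix of the lung, carried Cxcl10 in every library. The level was 177 CPM in LPS+RT, 408 CPM in LPS, 67.9 CPM in PBS+RT and 94.0 CPM in PBS. LPS was 4.34 times PBS (3.98 to 4.74), LPS+RT was 2.31 times lower than LPS (2.14 to 2.49) and 2.61 times PBS+RT (2.36 to 2.89), and PBS+RT was 1.39 times lower than PBS (1.24 to 1.55). The gap between LPS+RT and LPS was the smallest of all 16 classes compared for Cxcl10, but this rank rests on cluster 34, described below. Outside that cluster the LPS+RT over LPS ratio was 0.260, against 0.434 for the whole class. This is farther from 1 than the 0.274 of endothelial-like and the 0.379 of T and innate lymphoid cell-like cells. Cells with a UMI made up 7.77% of LPS+RT, 19.5% of LPS, 5.66% of PBS+RT and 6.97% of PBS fibroblast-like cells.

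Endothelial-like cells had 34.5 CPM of Cxcl10 in LPS+RT, 126 CPM in LPS, 15.3 CPM in PBS+RT and 14.4 CPM in PBS. LPS was 8.73 times PBS (7.45 to 10.3), and LPS+RT was 3.64 times lower than LPS (3.22 to 4.12) and 2.25 times PBS+RT (1.94 to 2.61). Vessel types differed in this. General capillary cells had 28.7 CPM in LPS+RT, 166 CPM in LPS, 17.4 CPM in PBS+RT and 20.8 CPM in PBS, while the aerocytes of the gas-exchange surface had 10.7 CPM in LPS+RT, 41.3 CPM in LPS, 1.54 CPM in PBS+RT and 2.77 CPM in PBS. Large-vessel cells ran the other way, with 156 CPM in LPS+RT, 34.7 CPM in LPS, 41.3 CPM in PBS+RT and 10.6 CPM in PBS. There LPS+RT was 4.50 times LPS (2.31 to 10.0) and PBS+RT was 3.91 times PBS (2.14 to 7.72), both irradiated libraries standing above their partner. The large-vessel values rest on 173 LPS+RT, 9 LPS, 68 PBS+RT and 13 PBS UMIs, and 2 LPS+RT cells held at least as many as all other LPS+RT cells. The share of large-vessel cells with a UMI gave another order, 9.58% in LPS+RT, 16.7% in LPS, 8.02% in PBS+RT and 2.58% in PBS, with 36 LPS cells.

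Lymphoid classes carried some Cxcl10 in the LPS library. The T and innate lymphoid cell-like class had 106 CPM in LPS+RT, 280 CPM in LPS, 16.5 CPM in PBS+RT and 51.6 CPM in PBS, with 2 LPS cells holding at least as many UMIs as the rest. Natural killer cell-like cells had 6.96 CPM in LPS+RT, 132 CPM in LPS, 0.974 CPM in PBS+RT and 13 CPM in PBS, and T cell-like cells 5.91 CPM in LPS+RT, 61.2 CPM in LPS, 1.85 CPM in PBS+RT and 2.42 CPM in PBS. These LPS levels are above the value given by S100a8 as free RNA, 5.84 CPM in natural killer cell-like and 6.40 CPM in T cell-like cells. The Cd79a value for natural killer cell-like cells was 99.5 CPM, nearer to the measured 132 CPM. B cell-like cells had 2.05 CPM in LPS+RT, 25.6 CPM in LPS, 0.629 CPM in PBS+RT and 1.45 CPM in PBS, against an S100a8 value of 19.6 CPM in LPS. The part of free RNA in these lymphoid levels was not tested. Among the structural classes left, alveolar type 1-like cells had 5.59 CPM in LPS+RT, 102 CPM in LPS, 3.49 CPM in PBS+RT and 2.41 CPM in PBS, with 21 of 35 LPS UMIs in 1 cell. Alveolar type 2-like cells, too few for a ratio, had 29 UMIs in LPS+RT, 23 of them in 1 cell, 4 in LPS, 0 in PBS+RT and 1 in PBS. Nonclassical monocyte-like cells had 0 UMIs in LPS+RT and 41.2 CPM in LPS, with 2.53 CPM in PBS+RT and 0.869 CPM in PBS.

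In the same count over classes, Cxcl10 was at least 2-fold higher in LPS than in PBS in 14 of 15 classes (all genes and classes 7.7%), with a median of 10.7-fold and the interstitial macrophage-like class at 1.73-fold as the exception. Without the top cell of each library the LPS level of that class was 197 CPM and its PBS level 69.0 CPM, more than 2-fold apart. It was at least 2-fold lower in LPS+RT than in LPS in 16 of 16 classes, by 2.31 to 39.2 times (5.75%). In LPS+RT against PBS+RT it was at least 2-fold higher in 4 of 4 classes, namely classical monocyte-like, endothelial-like, fibroblast-like and neutrophil-like cells (3.89%). In PBS+RT against PBS it was at least 2-fold lower in 1 of 2 classes (3.78%), the classical monocyte-like one, whose PBS UMIs lie mostly in 1 cell. The comparisons share libraries, so their counts are not independent of each other. Sftpc as free RNA would give 107 CPM of Cxcl10 in LPS alveolar type 1-like cells (measured 102) and 268 CPM in platelet-like cells (measured 55.3). Cd79a would give 427 CPM in LPS pericyte-like cells (measured 31.1). The other classes compared stood above their highest such value in LPS. The part of free RNA in these counts was not tested.

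**Figure D3:**
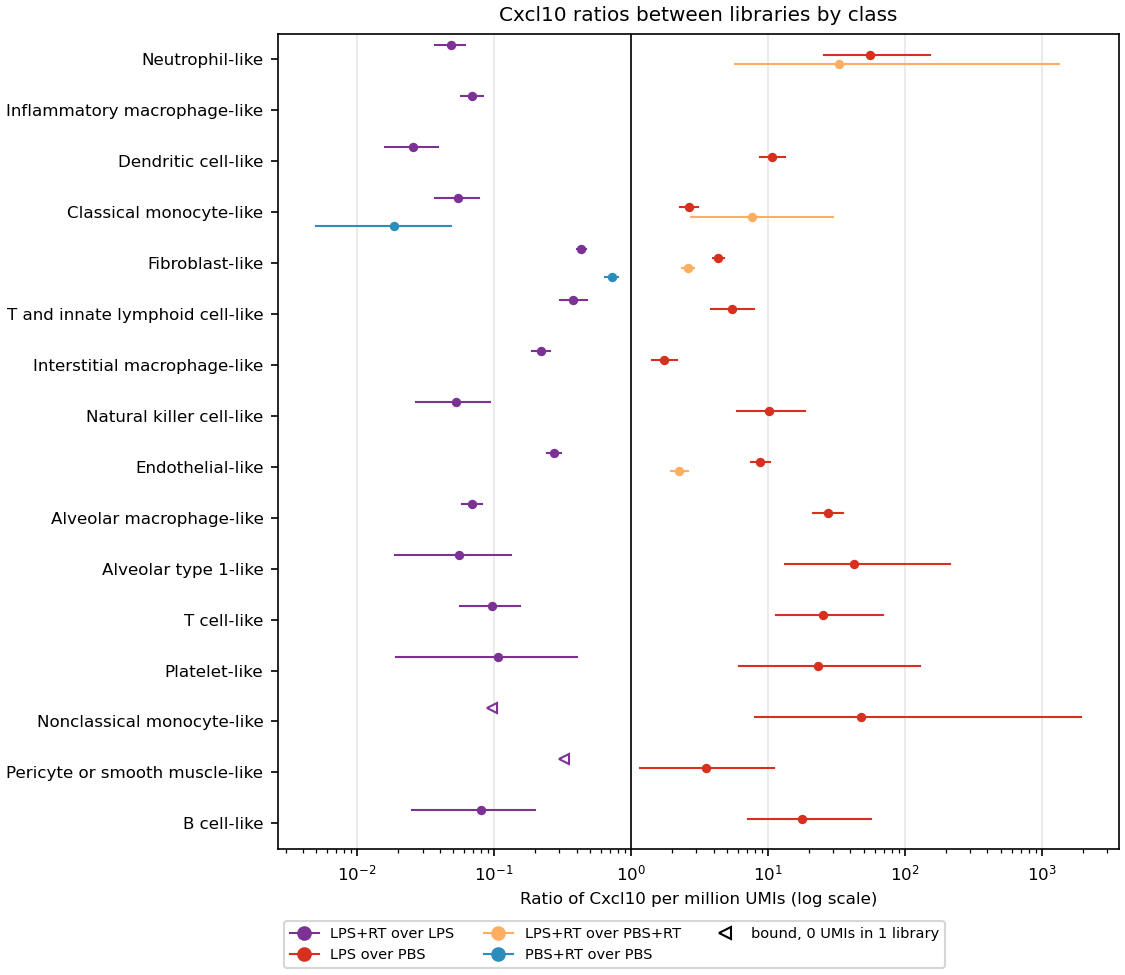
Ratio of Cxcl10 CPM between libraries on a log axis, for classes of 50 or more cells in both libraries that reached 20 CPM in the higher; bars are exact 95% intervals for counting error and open triangles are bounds where 1 library has 0 UMIs. All 16 LPS+RT over LPS ratios lie left of 1, with fibroblast-like cells, cluster 34 included, nearest to it. All 15 LPS over PBS ratios lie right of 1.

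Within the strongest classes, single groups of cells carried most of the ligand. The clusters below were built without Cxcl9, Cxcl10 and Cxcr3 but from other variable genes of the same cells, so their high levels are a description. At a finer clustering the LPS inflammatory macrophage-like cells split into 228 cells high in Nos2, the inducible nitric oxide synthase, and 319 cells high in Arg1, the arginine-degrading enzyme of alternative activation. The Nos2-high group had 2585 CPM of Cxcl9 (2538 to 2633) and 1845 CPM of Cxcl10 (1806 to 1886), with a Cxcl9 UMI in 79.4% of its cells and in 66.2% after thinning. The Arg1-high group had 51.9 CPM of Cxcl9 (47.5 to 56.7) and 122 CPM of Cxcl10. Gbp2, an interferon-induced GTPase, stood at 1482 CPM in the Nos2-high and 234 CPM in the Arg1-high group. The name of the Nos2-high cells is not firm. With Ly6c2, a marker of classical monocytes, at 1765 CPM, they were classical monocyte-like at the finer clustering.

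In the LPS+RT library only 8 cells fell into the Nos2-high group, too few for a level, and 105 into the Arg1-high group. Within the Arg1-high group, Cxcl9 was 17.7 CPM in LPS+RT and 51.9 CPM in LPS, 2.94 times lower in LPS+RT (2.14 to 4.13), and Cxcl10 was 44.2 CPM in LPS+RT and 122 CPM in LPS, 2.75 times lower in LPS+RT (2.25 to 3.39). The 39.6-fold gap of the whole class thus sets different mixtures of cells against each other. The same LPS cells were also sorted by their own UMIs. The 194 cells with Nos2 and no Arg1 UMI had 1561 CPM of Cxcl9, the 213 cells with neither 925 CPM, those with both 329 CPM, and those with Arg1 alone 76.6 CPM. The cells with neither held 4413 of the class's 12031 Cxcl9 UMIs in LPS. In LPS+RT the 17 cells with Nos2 alone had 86.1 CPM and the 21 cells with Arg1 alone had 0 UMIs.

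Neutrophil-like cells showed the same concentration. Cluster 22, led by the interferon-induced genes Rsad2, Slfn4 and Gbp5, held 10 LPS+RT, 474 LPS, 0 PBS+RT and 0 PBS cells. Its LPS cells had 9525 of the 11284 Cxcl10 UMIs of LPS neutrophil-like cells, at 3273 CPM (3208 to 3339), with a UMI in 72.4% of cells and in 62.1% after thinning. They also had 512 CPM of Cxcl9. The 10 LPS+RT cells of cluster 22 had 39 Cxcl10 UMIs, 27 of them in 1 cell, and 0 Cxcl9 UMIs. Outside cluster 22, neutrophil-like cells had 14.4 CPM of Cxcl10 in LPS+RT, 133 CPM in LPS, 1.01 CPM in PBS+RT and 12.6 CPM in PBS. There LPS+RT was still 9.23 times lower than LPS (6.37 to 13.9), and LPS was 10.6 times PBS (4.84 to 28.8).

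Among fibroblast-like cells, cluster 34, led by Csmd1, Hhip and Aspn, stood apart from the rest. With 82 LPS+RT, 33 LPS, 76 PBS+RT and 92 PBS cells, it had 829 CPM of Cxcl10 (761 to 901) in LPS+RT, 540 CPM (466 to 622) in LPS, 121 CPM (96.6 to 149) in PBS+RT and 325 CPM (282 to 372) in PBS. LPS+RT was 1.54 times LPS (1.30 to 1.82) and 6.87 times PBS+RT (5.47 to 8.71), so the irradiated library was the higher one after LPS and the lower one after saline. Few cells carried these values, since 3 LPS+RT cells held at least as many UMIs as the other cells. Without the top cell of each library the levels were 657 CPM in LPS+RT, 365 CPM in LPS, 90.8 CPM in PBS+RT and 164 CPM in PBS. The share of cells with a UMI ran the other way after LPS, with 24.4% in LPS+RT and 33.3% in LPS, and with 14.5% in PBS+RT and 13% in PBS. Fibroblast-like cells outside cluster 34 had 103 CPM in LPS+RT, 395 CPM in LPS, 63.1 CPM in PBS+RT and 73.5 CPM in PBS, and there LPS+RT was 3.85 times lower than LPS (3.5 to 4.24). Cluster 34 had 0 Cxcl9 UMIs in LPS+RT, 1 in LPS and 0 in both saline libraries.

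**Figure D4:**
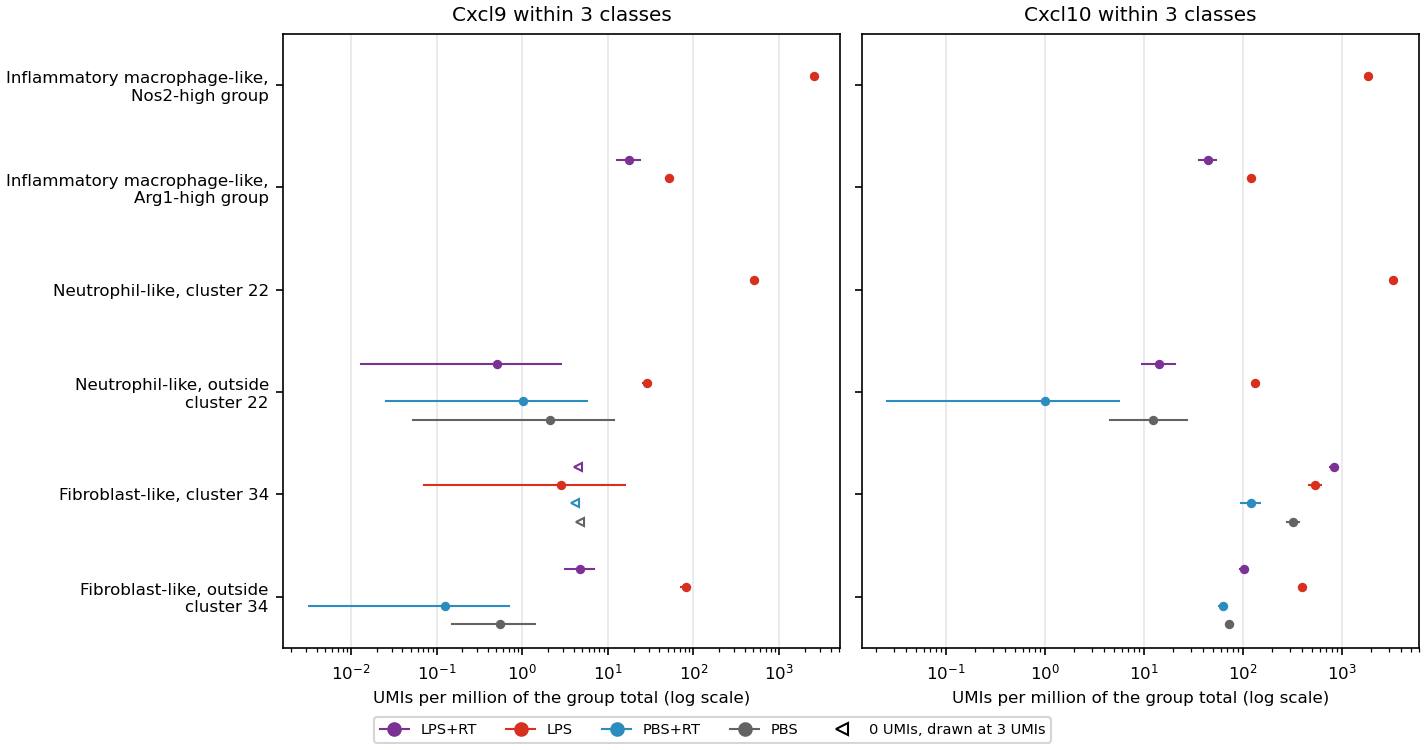
Cxcl9 (left) and Cxcl10 (right) in CPM on a log axis within inflammatory macrophage-like, neutrophil-like and fibroblast-like cells, for groups of at least 20 cells, libraries in the order LPS+RT, LPS, PBS+RT, PBS; bars are exact Poisson 95% intervals and open triangles are 0 UMIs drawn at 3 UMIs. Cxcl9 reaches 2585 CPM in the LPS Nos2-high group, and Cxcl10 reaches 3273 CPM in LPS neutrophil-like cluster 22.

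The 2 ligands were often found in the same cells of the LPS library. Of inflammatory macrophage-like cells with a Cxcl9 UMI, 79.9% also had a Cxcl10 UMI, against 40.6% of the cells without Cxcl9, although the Cxcl9 cells were the shallower ones (medians of 18410.5 and 28029 UMIs). In neutrophil-like cells the shares were 53.6% with Cxcl9 and 22.4% without it, at medians of 5450 and 5167 UMIs. In interstitial macrophage-like cells the shares lay closer together, at 53.85% with Cxcl9 and 37% without it, at medians of 15995.5 and 21536 UMIs. The same comparison gave 61.9% and 23.9% in dendritic cell-like, 75% and 30.4% in alveolar macrophage-like, and 30.2% and 11.9% in endothelial-like cells. In these classes the Cxcl9 cells were the deeper ones. Medians were 17042.5 against 15309 UMIs in dendritic cell-like, 44826 against 34128.5 in alveolar macrophage-like and 8612 against 7222 in endothelial-like cells. The part of depth was not tested. The balance of the ligands differed between classes. Cxcl9 made up 69.8% (68.0 to 71.5) of both ligands' UMIs in LPS alveolar macrophage-like, 58.8% in dendritic cell-like, 56.2% in inflammatory macrophage-like, 23.2% in endothelial-like, 15.4% in fibroblast-like and 14.2% (13.6 to 14.8) in neutrophil-like cells. In LPS+RT the dendritic cell-like share was 83.1% and the fibroblast-like share 2.37%. The dendritic cell-like share rests on 108 Cxcl9 and 22 Cxcl10 UMIs, and 1 cell held 68 of the 108. In LPS, 3 alveolar macrophage-like cells held at least as many Cxcl9 UMIs as all the others of that class. A single LPS fibroblast-like cell held 149 of the 290 Cxcl9 UMIs there.

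Genes of the induction pathway were read from a list of 17 interferon and NF-kB signalling genes. In LPS against PBS, 9 of 15 measured members were at least 2-fold higher and 1 was lower in neutrophil-like cells (17.4% higher and 12.4% lower over all genes), with a median log2 ratio of 1.29 against 0.15 over all genes. Dendritic cell-like cells had 5 of 15 higher and 0 lower (12.8%, 5.53%), fibroblast-like cells 4 of 14 and 0 (4.79%, 3.78%), endothelial-like cells 2 of 14 and 0 (2.12%, 1.3%) and T cell-like cells 7 of 15 and 0 (7.01%, 1.58%). Irf1, a transcription factor induced by interferons, was at 297 CPM in LPS dendritic cell-like cells against 51.2 CPM in the PBS ones. In neutrophil-like cells Irf1 was at 389 CPM in LPS against 151 CPM in PBS. Nfkb1, the NF-kB p50 precursor, reached 1874 CPM in LPS against 488 CPM in PBS neutrophil-like cells. Jak2, a kinase of the interferon-gamma receptor, was at 148 CPM in LPS fibroblast-like cells against 46.7 CPM in the PBS ones. Irf8, a myeloid regulator, was the lower one in neutrophil-like cells, with 10.7 CPM in LPS against 85.9 CPM in PBS. The neutrophil-like ratios of LPS over PBS set different mixtures of clusters against each other, and the part of this was not tested.

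In LPS+RT against LPS, no measured member of the induction list was at least 2-fold higher in neutrophil-like, inflammatory macrophage-like, dendritic cell-like, fibroblast-like, endothelial-like, T cell-like or natural killer cell-like cells, where 3.17%, 1.35%, 2.91%, 1.13%, 0.853%, 0.731% and 1.39% of all genes were. Lower were 6 of 14 in neutrophil-like (all genes 4.72%), 5 of 15 in inflammatory macrophage-like (4.14%), 3 of 15 in dendritic cell-like (6.87%), 4 of 15 in T cell-like (3.61%), 2 of 14 in natural killer cell-like (2.22%), 1 of 14 in fibroblast-like (2.98%) and 1 of 14 in endothelial-like cells (1.36%). In inflammatory macrophage-like cells Irf1 was at 47.2 CPM in LPS+RT and 184 CPM in LPS, and in neutrophil-like cells at 135 CPM in LPS+RT and 389 CPM in LPS. Nfkb1 was at 935 CPM in LPS+RT and 1874 CPM in LPS neutrophil-like cells. Median log2 ratios of the list were −0.67 in neutrophil-like, −0.64 in inflammatory macrophage-like and −0.59 in dendritic cell-like cells, against −0.06, −0.02 and −0.18 over all genes.

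Ifng, the gene of interferon-gamma, had 389 UMIs in LPS+RT, 3278 in LPS, 108 in PBS+RT and 129 in PBS libraries. Natural killer cell-like cells had 129 CPM in LPS+RT, 461 CPM in LPS, 59.4 CPM in PBS+RT and 70.5 CPM in PBS. T cell-like cells had 24.0 CPM in LPS+RT, 338 CPM in LPS, 18.9 CPM in PBS+RT and 11.7 CPM in PBS. The LPS library was highest in both classes, and the gap between LPS+RT and LPS was wider in T cell-like cells, where it was 14.1-fold. T cell-like cells held 18.8% of the Ifng UMIs of LPS+RT, 46.2% of LPS, 38.0% of PBS+RT and 22.5% of PBS lungs, and natural killer cell-like cells 57.1% of LPS+RT, 35.0% of LPS, 56.5% of PBS+RT and 58.9% of PBS.

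Cxcr3, the receptor, had 175 UMIs in LPS+RT, 280 in LPS, 95 in PBS+RT and 175 in PBS over all cells. The highest LPS+RT and LPS levels, with intervals that overlap in LPS, were in T and innate lymphoid cell-like, plasmacytoid dendritic cell-like and T cell-like cells. The T and innate lymphoid cell-like class stood at 55.4 CPM in LPS+RT, 44.2 CPM in LPS, 27.6 CPM in PBS+RT and 58.8 CPM in PBS, and 23.4% of LPS+RT, 22.3% of LPS, 16.3% of PBS+RT and 21.6% of PBS cells had a UMI. In that class LPS over PBS was 0.751 (0.480 to 1.18) and LPS+RT over LPS 1.26 (0.833 to 1.90), and both intervals include 1. Plasmacytoid dendritic cell-like cells, producers of type I interferon, had 38.9 CPM in LPS+RT, 35.9 CPM in LPS, 9.15 CPM in PBS+RT and 29.9 CPM in PBS, on 6 LPS+RT, 9 LPS, 3 PBS+RT and 7 PBS UMIs. B cell-like cells had 0 UMIs in LPS+RT, 0 in LPS, 2 in PBS+RT and 2 in PBS, at median depths of 5143 UMIs in LPS+RT, 5010 in LPS, 7873 in PBS+RT and 5530 in PBS. In the remaining classes, natural killer cell-like cells aside, Cxcr3 stayed between 0 and 6.17 CPM in LPS+RT, 3.96 CPM in LPS, 5.00 CPM in PBS+RT and 15.1 CPM in PBS. The highest of these PBS values was that of dendritic cell-like cells, on 26 UMIs and with a UMI in 16.7% of cells. By UMIs, LPS neutrophil-like cells held 26 and interstitial macrophage-like cells 21 of the 280, against 14 in natural killer cell-like cells. The promoter window of Cxcr3, chrX:101734148-101734397, is counted from the RefSeq start and overlaps the gene span given above. It holds 1 match of the T-box core GTGTGA, 234 to 229 bases before that RefSeq start. Of all promoters, 12.3% hold at least 1 such match.

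T cell-like cells had 15.4 CPM of Cxcr3 (11.4 to 20.5) in LPS+RT, 30.8 CPM (25.9 to 36.4) in LPS, 24.4 CPM (18.3 to 32) in PBS+RT and 19.4 CPM (14.3 to 25.7) in PBS. LPS was 1.59 times PBS (1.14 to 2.25), and LPS+RT was 1.99 times lower than LPS (1.42 to 2.84) and 1.58 times lower than PBS+RT (1.05 to 2.40). PBS+RT over PBS was 1.26 (0.837 to 1.90), an interval that includes 1. Over all genes in this class, median log2 ratios were 0.14 in LPS over PBS, −0.11 in LPS+RT over LPS and 0.28 in PBS+RT over PBS. In LPS+RT over PBS+RT the median was −0.21, which lies inside the Cxcr3 log2 interval of −1.26 to −0.07. When the clustering used all variable genes, the log2 ratio of LPS over PBS was 0.17, against 0.67 here. Cells with a UMI made up 7.97% of LPS+RT, 18.6% of LPS, 11.8% of PBS+RT and 11.6% of PBS T cell-like cells, and after thinning 3.01% of LPS+RT, 4.84% of LPS, 3.88% of PBS+RT and 3.23% of PBS cells. No class with at least 20 CPM was 2-fold higher for Cxcr3 in any of the 4 comparisons. Of all gene and class pairs, 7.7% were higher in LPS against PBS and 3.89% in LPS+RT against PBS+RT. In LPS+RT against LPS 3.06% were higher, and in PBS+RT against PBS 4.93%. It was at least 2-fold lower in 1 of 3 classes in LPS against PBS (all genes and classes 6.05%) and in 1 of 2 in PBS+RT against PBS (3.78%), both times natural killer cell-like cells. In LPS+RT it was lower in 0 of 2 classes against LPS (5.75%) and in 0 of 1 against PBS+RT (5.64%). With so few classes, counts of 0 are near these shares, and the 1.99 times of T cell-like cells lies just under the 2-fold limit.

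The T cell-like class holds clusters that differ in Cxcr3, in different proportions per library. Cluster 24, led by Ifng, Cd8b1 and Cd8a, made up 121 of 389 LPS+RT, 220 of 468 LPS, 35 of 211 PBS+RT and 63 of 293 PBS cells. Its Cxcr3 level was 36.6 CPM in LPS+RT, 42.9 CPM in LPS, 48.1 CPM in PBS+RT and 59.7 CPM in PBS, and the intervals of all 4 ratios include 1. Cluster 14, led by Dapl1, Lef1 and Themis, genes of resting T cells, had 4.49 CPM in LPS+RT, 14.6 CPM in LPS, 19.2 CPM in PBS+RT and 8.25 CPM in PBS. Here LPS+RT was 3.25 times lower than LPS (1.49 to 7.84) and 4.27 times lower than PBS+RT (2.01 to 10.1), on 9 LPS+RT, 28 LPS, 34 PBS+RT and 16 PBS UMIs. Within clusters the LPS over PBS ratio was 0.719 (0.481 to 1.10) in cluster 24 and 1.77 (0.925 to 3.5) in cluster 14, beside 1.59 for the whole class. Cells typed by their own UMIs gave CD8-type levels of 14.9 CPM in LPS+RT, 33.3 CPM in LPS, 14.2 CPM in PBS+RT and 32.2 CPM in PBS, both irradiated libraries being lower, by 2.24 times (1.34 to 3.95) in LPS+RT against LPS and by 2.26 times (1.04 to 5.45) in PBS+RT against PBS. CD4-type cells had 32.3 CPM in LPS+RT, 33.0 CPM in LPS, 22.2 CPM in PBS+RT and 28.5 CPM in PBS, with no ratio whose interval excludes 1. Cells with Foxp3, the regulatory T cell factor, had 9 Cxcr3 UMIs in 17 LPS+RT cells, 14 in 20 LPS cells, 1 in 7 PBS+RT cells and 3 in 18 PBS cells.

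Natural killer cell-like cells had 8.12 CPM of Cxcr3 in LPS+RT, 5.63 CPM in LPS, 10.7 CPM in PBS+RT and 25.1 CPM in PBS, so only the PBS library stood high. LPS was 4.45 times lower than PBS (2.25 to 9.18), and PBS+RT was 2.34 times lower than PBS (1.12 to 5.22). LPS+RT over LPS was 1.44 (0.637 to 3.26) and LPS+RT over PBS+RT 0.758 (0.320 to 1.84). Cells with a UMI made up 4.18% of LPS+RT, 4.19% of LPS, 5.11% of PBS+RT and 9.38% of PBS natural killer cell-like cells, and after thinning 1.80% of LPS+RT, 1.20% of LPS, 1.81% of PBS+RT and 4.70% of PBS cells. Over all genes the median log2 ratio of LPS over PBS in this class was 0.02. In the same comparison dendritic cell-like cells had 2.58 CPM in LPS and 15.1 CPM in PBS, which is below the 20 CPM used for calls.

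**Figure D5:**
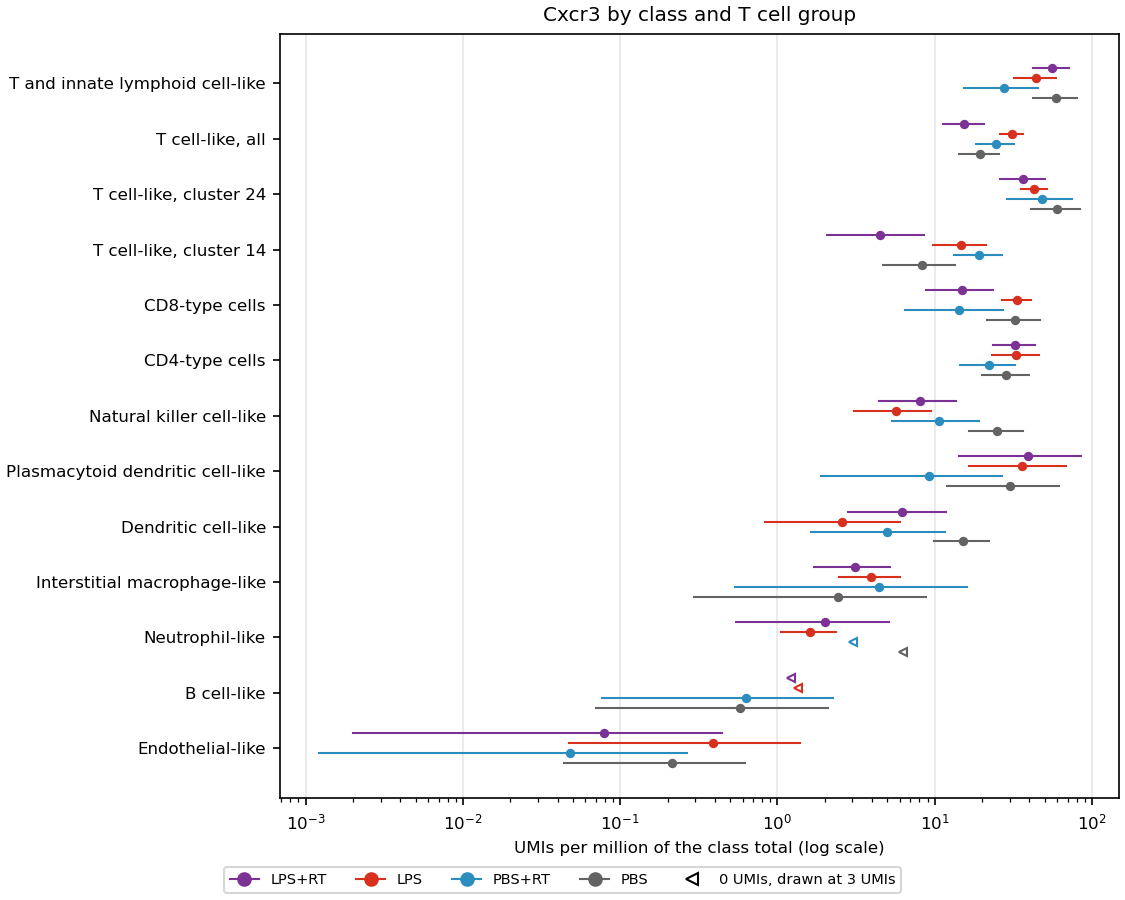
Cxcr3 in CPM on a log axis by class and by T cell group, libraries in the order LPS+RT, LPS, PBS+RT, PBS; bars are exact Poisson 95% intervals and open triangles are 0 UMIs drawn at 3 UMIs. T and innate lymphoid cell-like cells and T cell-like cluster 24 stand high, B cell-like and endothelial-like cells are near 0, and PBS stands above the other libraries in natural killer cell-like cells.

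T cell-like cells with a Cxcr3 UMI carried more of the factors tied to the receptor. Tbx21, encoding T-bet, was at 164 CPM in LPS+RT, 92.3 CPM in LPS, 104 CPM in PBS+RT and 70.8 CPM in PBS cells with Cxcr3, against 32.1 CPM in LPS+RT, 66.2 CPM in LPS, 17.7 CPM in PBS+RT and 14.7 CPM in PBS cells without it. Cxcr6, another chemokine receptor of tissue T cells, was also higher with Cxcr3 in each library, for example 159 CPM against 9.14 CPM in PBS+RT. Ccr7, which guides naive T cells to lymph nodes, was lower, at 186 CPM with and 439 CPM without Cxcr3 in LPS+RT, 124 and 279 CPM in LPS, 140 and 530 CPM in PBS+RT, and 196 and 546 CPM in PBS. Ifng differed in 3 libraries, with 127 CPM against 14.1 CPM in LPS+RT, 71.4 CPM against 10.2 CPM in PBS+RT and 49.0 CPM against 5.22 CPM in PBS, while in LPS it stood at 334 CPM with and 339 CPM without a Cxcr3 UMI. Cells with a UMI were also deeper, with medians of 11380 against 8237 UMIs in LPS, and the part of depth in these differences was not tested. In natural killer cell-like cells Tbx21 ran the other way in all 4 libraries, for example 202 CPM with and 299 CPM without Cxcr3 in PBS. Cxcr6 was lower with Cxcr3 in the T and innate lymphoid cell-like class of LPS+RT, at 101 against 352 CPM. The same held for that class in LPS, at 153 against 262.5 CPM, and in PBS, at 159 against 276 CPM. In PBS+RT Cxcr6 was higher with Cxcr3 in that class, at 324 against 213 CPM.

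The remaining lists place the receptor beside its partners. Of 9 receptor-side factors, 8 were measured in T cell-like cells and 4 were at least 2-fold higher in LPS than in PBS, with a median log2 ratio of 0.94 against 0.14 over all genes, of which 7.01% were higher. These were Tbx21 (72.5 CPM in LPS, 23.0 CPM in PBS), Eomes (25.4 CPM in LPS, 11.3 CPM in PBS), Runx3 (255 CPM in LPS, 78.0 CPM in PBS) and Il12rb2 (257 CPM in LPS, 89.7 CPM in PBS), all known from type 1 lymphocytes. In LPS+RT against LPS, 1 of 8 was lower (all genes 3.61%), Runx3 at 104 CPM in LPS+RT and 255 CPM in LPS. None of the 8 measured in natural killer cell-like cells was 2-fold apart in LPS against PBS (3.9% of all genes higher, 4% lower) or in LPS+RT against LPS. Of 12 other homing receptors, 9 were measured in T cell-like cells. In LPS against PBS, 2 were at least 2-fold higher (all genes 7.01%), among them Cxcr6 (50.2 CPM in LPS, 19.8 CPM in PBS), and 2 were lower (1.58%), Ccr7 (241 CPM in LPS, 494 CPM in PBS) and S1pr1 (225 CPM in LPS, 451 CPM in PBS), which steers exit from lymph nodes. In LPS+RT against LPS, 3 of the 9 were lower (3.61%), among them Cxcr5 at 19.1 CPM in LPS+RT and 38.6 CPM in LPS and Cxcr6 at 22.3 CPM in LPS+RT and 50.2 CPM in LPS.

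Of the 6 listed ligands and decoys of the axis, Pf4, the platelet chemokine CXCL4, was lower in LPS than in PBS in endothelial-like cells (39.4 CPM in LPS, 134 CPM in PBS), fibroblast-like cells (17.2 CPM in LPS, 46.7 CPM in PBS) and natural killer cell-like cells (3.22 CPM in LPS, 51.0 CPM in PBS), and higher in alveolar macrophage-like cells (66.9 CPM in LPS, 17.7 CPM in PBS). Pf4 is a very abundant platelet transcript, and the part of platelet RNA in these levels was not tested. Ackr3, a scavenging receptor of related chemokines, was at 28.5 CPM in LPS fibroblast-like cells against 72.1 CPM in the PBS ones. Dpp4, the peptidase that trims and inactivates CXCR3 ligands, was at 85.4 CPM in LPS+RT, 182 CPM in PBS+RT and 84.1 CPM in PBS T cell-like cells. Its log2 ratio there was 0.14 in LPS over PBS and −0.11 in LPS+RT over LPS, so only PBS+RT stood apart.

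Across 62 library and class pairs and 12252 genes, the genes most like Cxcl9 by Pearson correlation of log2(CPM + 10) were Car13 (0.832), Gbp2 (0.826), Nos2 (0.771), Gbp5 (0.743) and Cxcl10 (0.709). Those most like Cxcl10 were Gbp5 (0.797), Gbp2 (0.759), Cxcl9 (0.709), Gbp3 (0.680) and Saa3 (0.671). Those most like Cxcr3 were Icos (0.938), Xlr4a (0.922), Acsbg1 (0.915), Tnfrsf18 (0.914) and Trbc2 (0.907). The receptor's correlation was −0.123 with Cxcl9 and 0.105 with Cxcl10, so its pattern over these library and class pairs was not that of either ligand. The pairs share libraries and are not independent, and these values are descriptions.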

How the data were processed

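Single-cell RNA of 4 mouse lung libraries, 1 per group, was read from the deposited 10x matrices, which hold raw counts of UMIs that Cell Ranger 7.0.1 wrote, as the file headers state, against mm10, per the submitters' processing notes, which also name R 4.2.2 and Seurat 4.3.0. The kit was version 3.1 with a target of 10000 cells, per the labels. The filter asked for 500 UMIs and 200 genes or more and for no more than 10% mitochondrial UMIs. Doublets were then called per library by simulation with an expected 8%, and 248 LPS+RT, 181 LPS, 102 PBS+RT and 130 PBS cells were removed. Depth was 78669568, 80013887, 69119644 and 65995600 UMIs in LPS+RT, LPS, PBS+RT and PBS. No 2 cells had identical counts, and cell barcode sequences were not used here.

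Cells were clustered (2000 variable genes, 30 components, 15 neighbours, Leiden resolution 1.5) with scanpy 1.11.5 and leidenalg 0.10.2 on Python 3.11.15. Cxcl9, Cxcl10, Cxcr3, Cxcl11 and the list genes that are not class markers were kept out of the variable genes. The list genes Pf4, Ccr2, Ccr7 and Ccr9 are class markers and could enter, as could other chemokine genes. Clusters were named from 161 markers of 27 classes, where a marker had to be in at least 10% of cells and 2-fold over the median cluster, with 3 such markers needed. The naming thresholds were set after the clusters were seen, 9 clusters stayed unnamed, and differences from the study's own cell types may come from rebuilt names. Levels sum the UMIs of a class in a library, and thinning to 2000 UMIs left out 3044 LPS+RT, 1869 LPS, 1038 PBS+RT and 2809 PBS cells. Intervals are exact Poisson for levels, exact conditional binomial for ratios and Clopper-Pearson for shares, at 95% with scipy 1.17.1; UMIs of 1 cell are not independent, and intervals cover counting error only. A value of 0 was floored at 3 counts. Ratios used classes of at least 50 cells (20 for groups within a class), and a gene was counted as different at 2-fold if the higher library reached 20 CPM. Motifs were searched in RefSeq promoters.

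Named genes were the 3 members, genes of 4 lists (43 of 44 measured) that were 2-fold apart, and the 5 genes most like each member. The rule took every such list gene; those given are examples chosen after their values were seen, and others are not reported here. Genes read in cells split by a Cxcr3, Nos2 or Arg1 UMI, and clusters 14, 22, 24 and 34, were picked after their values were seen. Members and lists were chosen with earlier results of these data known. Alternatives were other cell filters, doublets kept, equal weight per cell, naming by each cell's own markers, resolution 3, clustering on all variable genes, thinning, and leaving out abundant genes. Calculations were tested on simulated data.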

Additional observations from a re-analysis of the deposited data

Results flagged for a closer look

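The ratio of Cxcr3 in LPS over PBS lay on opposite sides of 1 in 2 lymphocyte classes. It was 0.225 in natural killer cell-like and 1.59 in T cell-like cells, and neither interval includes 1. In T cell-like cells LPS+RT over PBS+RT was 0.632, opposite to LPS over PBS in the same class. The interval of that 0.632 includes the median ratio of all genes in the class. With 1 library per group the differences were not tested. T cell-like cells with a Cxcr3 UMI were deeper than those without, and cluster 24 made up 220 of 468 LPS and 63 of 293 PBS cells of the class. The part of either in the result was not tested.

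Cxcl10 in LPS+RT over LPS was 1.54 (1.30 to 1.82) in fibroblast-like cluster 34 and 0.260 in fibroblast-like cells outside it, on opposite sides of 1. The difference was not tested. Without the top cell of each library cluster 34 stood at 657 CPM in LPS+RT and 365 CPM in LPS.

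Cells left unnamed also carried the ligands in LPS, where the PBS level was far lower. Cxcl9 stood at 4.50 CPM in LPS+RT, 68.4 CPM in LPS, 0.458 CPM in PBS+RT and 0 CPM in PBS unnamed cells, and Cxcl10 at 11.3 CPM in LPS+RT, 111 CPM in LPS, 4.58 CPM in PBS+RT and 5.58 CPM in PBS. The largest part was cluster 0, whose cells had a median of 1128 UMIs. Its 770 LPS cells had 372 Cxcl9 UMIs, 200 of them in 1 cell, and stood at 282 CPM with it and 131 CPM without it. Cluster 8, with markers of neutrophils and inflammatory macrophages, had 298 Cxcl10 UMIs in 753 LPS cells.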

How the results depend on the processing

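No paired analysis was possible because each group has 1 library. Under the alternatives, 345 values over 43 results were recomputed, 252 stayed within their 95% interval or within 1.5 times for a count, 93 moved, and no called direction turned round. Of 193 recomputed ratios, 189 kept their direction, the exceptions being near 1 (Cxcl9 LPS over PBS in interstitial macrophage-like cells, and Cxcr3 PBS+RT over PBS in T cell-like cells). Leaving out the 5 cells with the most UMIs of the gene, cluster 22 or cluster 34 was chosen after seeing the data.

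Cxcl9 in LPS inflammatory macrophage-like cells, otherwise 858 CPM, was 884 CPM at 5% mitochondrial UMIs, 1352 CPM as a mean over cells, 383 CPM with cells named by their own markers, 51.9 CPM at resolution 3, where the Nos2-high cells leave the class, 880.3 CPM with all variable genes and 754 CPM without the top 5 cells. Its log2 ratio of LPS+RT over LPS, otherwise −5.31, was −5.97 as a mean over cells, −4.03 by own markers, −1.55 at resolution 3, −4.64 with all variable genes and −7.83 without the top 5 cells. Cxcl10 in LPS neutrophil-like cells, otherwise 698 CPM, was 795 CPM as a mean over cells, 496 CPM by own markers, 587 CPM at resolution 3, 732 CPM with all variable genes, 642 CPM without the top 5 cells and 133 CPM without cluster 22. Its log2 ratio of LPS+RT over LPS, −4.38, was −6.06 without the top 5 cells and −3.21 without cluster 22. The Cxcl10 log2 ratio of LPS over PBS in fibroblast-like cells, 2.12, was 1.85 as a mean over cells, 2.36 without the top 5 cells and 2.43 without cluster 34. The Cxcr3 log2 ratio of LPS over PBS in T cell-like cells, 0.67, was 0.17 with all variable genes, and the share of LPS T cell-like cells with a UMI, 18.6%, was 4.84% thinned. Classes with Cxcl9 higher in LPS than in PBS, otherwise 7, were 13 by own markers and 3 without the top 5 cells, and classes with it lower in LPS+RT than in LPS, otherwise 9, were 14 and 4. The classes that reached the CPM limit were chosen anew in each setting, so these counts have no fixed total. Counting depth limits Cxcr3 and all saline Cxcl9 levels. The cause of each change not stated here was not tested.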
